A study of Mus musculus with 6 samples.

Results

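De novo lipogenesis, the making of fatty acids from sugar-derived carbon, was followed in mouse liver through 10 genes: the regulators Srebf1, Mlxipl and Thrsp and the enzymes Acly, Acaca, Acacb, Fasn, Scd1, Elovl6 and Me1. The members were chosen by symbol: every probe set that the array platform's annotation assigns to exactly 1 of these genes was taken, which gave 23 probe sets of the 34958 with exactly 1 symbol, and 10 genes of 18194. RNA came from flash-frozen liver of ovariectomized females on a C57 background, 3 arrays from SRC-2 null mice and 3 from wild-type mice. All animals lost their ovaries at 6 weeks of age and were killed under Avertin anaesthesia 2 weeks later, and feeding state and hour of death are not given in the labels. Ncoa2 encodes SRC-2, which coactivates nuclear receptors. The labels do not describe the null allele, and they do not say whether each array stands for 1 animal. A p-value here sets the genotype difference against the spread between arrays, an estimate drawn partly from all genes. That spread may be technical.

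In this pathway ATP-citrate lyase (Acly) turns cytosolic citrate into acetyl-CoA, acetyl-CoA carboxylases (Acaca, Acacb) turn that into malonyl-CoA, and fatty acid synthase (Fasn) joins malonyl units into palmitate with NADPH, part of which malic enzyme (Me1) supplies. Elovl6 lengthens palmitate and Scd1 puts a double bond into the products. SREBP-1, from Srebf1, carries the insulin signal to these genes and ChREBP, from Mlxipl, the glucose signal, while Thrsp, also called Spot 14, is a small protein that responds to thyroid hormone and carbohydrate and promotes lipogenesis.

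RefSeq promoter windows on GRCm38.p6 (250 bases before to 50 after an annotated start) were found for 9 of the 10 members, 13 windows in all. Scd1 was not among them. These 4 are shown because Thrsp had the largest fall of the members, Fasn makes the fatty acid itself, Acly was the member whose level differed least, and the second start of Mlxipl holds the sole sterol response element match of the 13 windows. Capitals mark motif matches on either strand.
Thrsp, chr7:97417501-97417800, minus strand: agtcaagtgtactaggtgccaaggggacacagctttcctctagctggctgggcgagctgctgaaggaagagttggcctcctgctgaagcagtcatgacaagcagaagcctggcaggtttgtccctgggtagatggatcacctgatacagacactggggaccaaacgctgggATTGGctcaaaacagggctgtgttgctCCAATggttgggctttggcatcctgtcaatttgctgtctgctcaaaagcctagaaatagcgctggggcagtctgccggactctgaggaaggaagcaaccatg
Fasn, chr11:120824498-120824797, minus strand: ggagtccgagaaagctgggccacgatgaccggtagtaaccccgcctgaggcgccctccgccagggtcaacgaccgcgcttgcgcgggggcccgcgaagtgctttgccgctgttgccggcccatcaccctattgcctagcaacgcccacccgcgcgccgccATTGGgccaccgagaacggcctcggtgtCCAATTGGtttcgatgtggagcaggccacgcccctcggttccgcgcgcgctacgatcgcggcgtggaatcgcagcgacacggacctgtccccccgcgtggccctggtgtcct
Acly, chr11:100527951-100528250, minus strand: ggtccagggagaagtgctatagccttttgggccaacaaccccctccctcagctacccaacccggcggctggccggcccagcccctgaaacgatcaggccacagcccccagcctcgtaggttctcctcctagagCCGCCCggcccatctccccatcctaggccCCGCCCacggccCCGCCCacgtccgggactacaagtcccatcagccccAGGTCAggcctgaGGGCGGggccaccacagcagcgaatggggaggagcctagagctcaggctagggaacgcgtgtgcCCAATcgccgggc
Mlxipl, second start, chr5:135106641-135106940, plus strand: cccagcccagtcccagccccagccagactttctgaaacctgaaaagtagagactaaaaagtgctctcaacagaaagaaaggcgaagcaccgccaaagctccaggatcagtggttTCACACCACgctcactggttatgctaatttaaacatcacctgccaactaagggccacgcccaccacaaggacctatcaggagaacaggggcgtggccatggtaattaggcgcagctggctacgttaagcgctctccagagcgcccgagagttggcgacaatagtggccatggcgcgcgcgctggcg

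The motifs searched, on both strands, were the sterol response element TCACNCCAC, the E-box CACGTG, the CCAAT box CCAAT, the GC box GGGCGG, the TATA box TATAAA and the nuclear receptor half-site AGGTCA. Positions count from the start, and a match is placed by its first base on the gene's strand. Thrsp held CCAAT boxes at -79 and -52, and Fasn held them at -90, -62 and -59, the last 2 of which overlap on opposite strands. Acly held GC boxes at -117, -88, -76 and -27, a half-site at -40 and a CCAAT box at 38. The Mlxipl match to the sterol response element lay at -136, and the other start of Mlxipl had an E-box at -98. CCAAT boxes were in 8 of the 13 windows, against 37.4% of all 32851 windows, and GC boxes in 5 of 13, against 35.7%. The sterol response element was in 1 of 13 windows, against 1.24% of all, and the E-box in 1 of 13, against 7.15%. TATA boxes were in 1 of 13, against 13.6%, and half-sites in 3 of 13, against 16.3%. These letters describe the windows and do not show that a factor binds there.

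**Figure D1:**
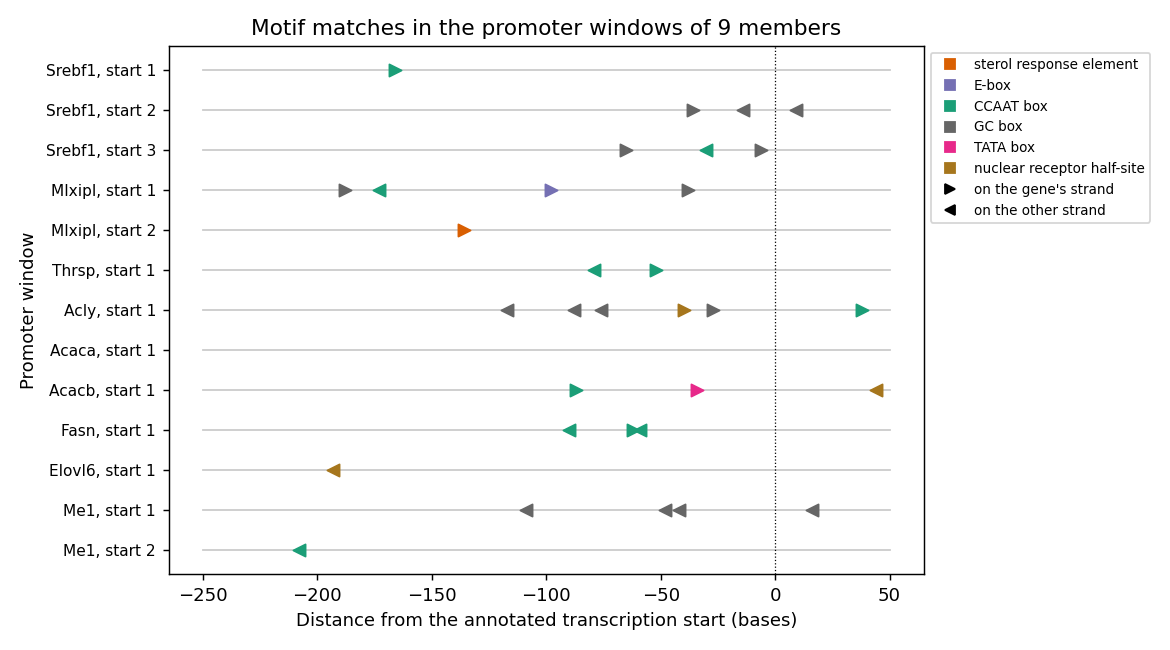
Motif matches in the 13 promoter windows of 9 members by distance in bases from the annotated start (dotted line), coloured by motif, with the arrow giving the strand. Thrsp and Fasn hold CCAAT boxes within 100 bases of their start and no GC box, Acly holds 4 GC boxes, and the Acaca window has no match to the 6 motifs.

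Each array gave log2 values for 45101 probe sets, made with robust multi-array average (RMA), with medians of 4.17 to 4.24, and precision is limited by how few arrays there are. Ncoa2 (1435233_at) averaged 5.63 ± 0.21 in SRC-2 null and 8.07 ± 0.41 in wild-type livers (log2 level, SD, n = 3 each), with no overlap between the genotypes. Genes were tested where the mean over the 6 arrays was at least 4.21, the median over the probe sets, with 1 probe set, the brightest, per gene. Replicate 3 of both genotypes stood apart from replicates 1 and 2. Differences within replicate 3 alone are therefore given for the members' median and for some probe sets. All 10 hepatocyte markers were tested, and 0 passed in limma, with 1 at an unadjusted p under 0.05 and a median log2 fold change of 0.00. The 4 with the smallest p were Serpinc1, Cps1, Tat and Fgb, at -0.20, 0.17, -0.18 and -0.12.

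Of the 10 members 5 fell in SRC-2 null liver, namely Thrsp, Srebf1, Fasn, Elovl6 and Mlxipl, and 0 rose. The background is that 3.13% of the 11895 genes tested fell and 1.55% rose (limma, adjusted p under 0.05). Log2 fold changes are the SRC-2 null mean minus the wild-type mean. The median log2 fold change of the members was -0.60, and it was 0.00 over all genes tested. All 10 brightest probe sets were above the filter on dim genes, all 10 fold changes were below 0, and 9 of 10 members had lower values on every SRC-2 null array than on any wild-type array. Over all genes tested, 12.5% showed such a separation downward. An unadjusted p under 0.05 was seen for 9 members, each lower, and for 0 upward, beside 9.58% of all genes tested that were lower at that p. With the replicate number as a block, 8 members were called rather than 5, all lower, beside 4.41% of all genes. That pairing was taken from these data, and it did not tell replicates 1 and 2 apart. Pearson's r of their deviations was 0.18 and 0.20 when matched and 0.17 and 0.21 when crossed. With replicates 1 and 2 alone, 4 were called, all lower, beside 1.97% of all genes. The median difference of the members was -0.59 within those replicates and -0.64 within replicate 3.

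**Figure D2:**
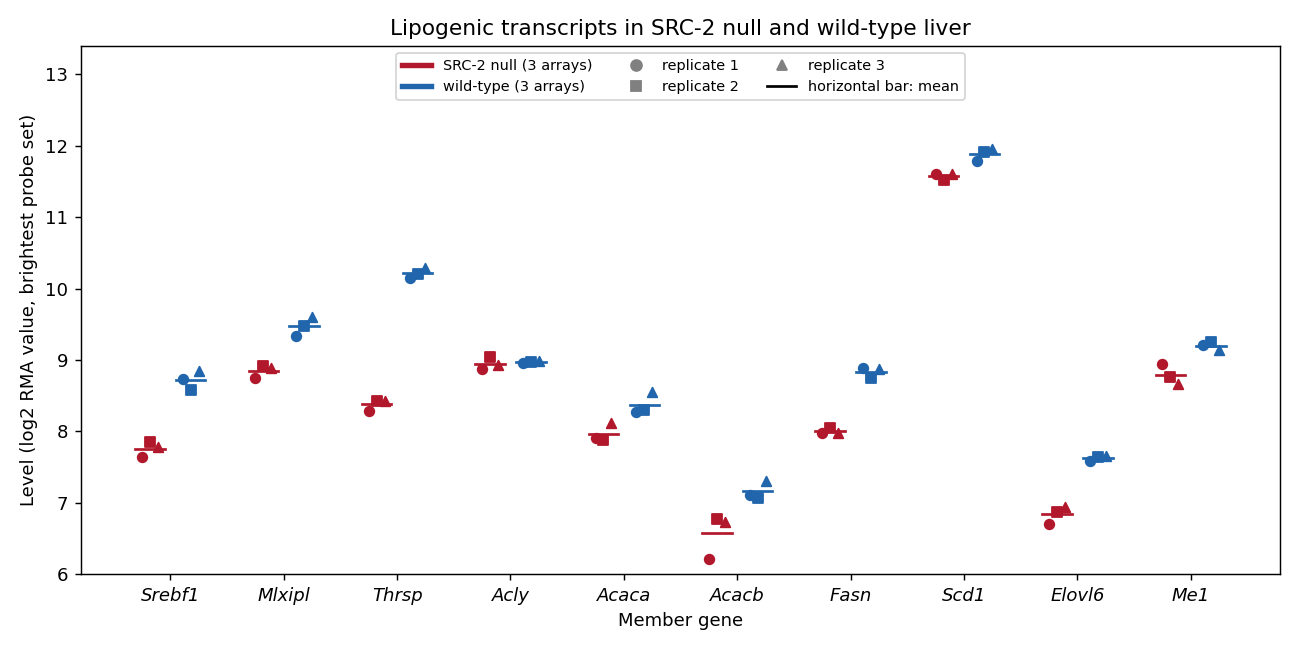
Level of each member on each array as a log2 value of its brightest probe set, SRC-2 null in red on the left and wild-type in blue on the right, with symbols for the replicate numbers and a bar at the mean. For every member but Acly the 3 SRC-2 null arrays lie below the 3 wild-type arrays. The gap is widest for Thrsp, at -1.83.

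Srebf1 encodes SREBP-1, a membrane-bound precursor that is cut to release the transcription factor. Its single probe set, 1426690_a_at, read 7.64, 7.85 and 7.78 in SRC-2 null and 8.73, 8.58 and 8.85 in wild-type livers (log2 level). The highest null array was lower than the lowest wild-type array. The log2 fold change was -0.96 (SE 0.10, 95% interval -1.20 to -0.73, adjusted p = 0.00117), and without each array in turn the adjusted p stayed at or below 0.00827. An _a_at probe set, by the platform's naming, detects several transcripts of its gene, so the SREBP-1a and SREBP-1c forms could not be read separately. RefSeq lists 3 starts for Srebf1 in the promoter windows.

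Mlxipl encodes ChREBP, the glucose-responsive partner of Mlx. Probe set 1419185_a_at read 8.74, 8.92 and 8.89 in SRC-2 null and 9.33, 9.47 and 9.61 in wild-type livers (log2 level). The genotypes did not overlap. The log2 fold change was -0.62 (SE 0.10, 95% interval -0.85 to -0.39, adjusted p = 0.0107). The call was lost without SRC-2 null replicate 1 (adjusted p = 0.0501), without wild-type replicate 2 (adjusted p = 0.0528) and with replicates 1 and 2 alone (adjusted p = 0.0630), at log2 fold changes of -0.57, -0.62 and -0.57. Among all probe sets, where 19634 were tested, its adjusted p was 0.0253.

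Thrsp had the largest difference of the members, 3.56-fold lower in SRC-2 null liver. Probe set 1424737_at read 8.29, 8.43 and 8.42 in SRC-2 null and 10.15, 10.21 and 10.28 in wild-type livers (log2 level). The arrays of each genotype lay close together and far from the other genotype. The log2 fold change was -1.83 (SE 0.09, 95% interval -2.03 to -1.64, adjusted p = 1.36e-05), which placed it at rank 14 of the 11895 genes by p and at rank 20 from the most lowered by fold change. A second probe set, 1422973_a_at, read 7.78, 7.70 and 7.59 in SRC-2 null and 9.63, 9.56 and 9.30 in wild-type livers, with a log2 fold change of -1.81 (adjusted p = 0.000245 over all probe sets). The third, 1444166_at, was dimmer and overlapped between genotypes, at 5.67, 5.45 and 5.55 in SRC-2 null and 5.63, 5.52 and 5.59 in wild-type livers. Its log2 fold change was -0.02 with a 95% interval of -0.24 to 0.19, which does not reach the fold changes of the other probe sets.

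Acly was the enzyme whose level differed least. Its brightest probe set, 1451666_at, read 8.87, 9.04 and 8.94 in SRC-2 null and 8.96, 8.98 and 8.99 in wild-type livers (log2 level), and the genotypes overlapped. The log2 fold change was -0.03 (SE 0.08, 95% interval -0.21 to 0.16, adjusted p = 0.923), an interval that holds falls of up to 1.16-fold. The other bright probe sets, 1439459_x_at and 1425326_at, had log2 fold changes of -0.02 (adjusted p = 0.977) and -0.19 (adjusted p = 0.714), and the remaining 3 had mean levels of 2.18 to 3.31 in either genotype, below the filter. Acly was singled out by its fold change, so its difference from the other members is a description.

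Acaca and Acacb encode the cytosolic carboxylase of fatty acid synthesis and the mitochondrial form whose product restrains fatty acid oxidation. Acaca (1434185_at) read 7.90, 7.88 and 8.12 in SRC-2 null and 8.28, 8.30 and 8.55 in wild-type livers, and Acacb (1427052_at) read 6.21, 6.78 and 6.73 in SRC-2 null and 7.11, 7.07 and 7.30 in wild-type livers (log2 levels). Neither gene's arrays overlapped between genotypes, and replicate 3 was the highest Acaca array in both genotypes. The log2 fold change of Acaca was -0.41 (95% interval -0.66 to -0.16, adjusted p = 0.0856), and that of Acacb was -0.59 (95% interval -0.94 to -0.23, adjusted p = 0.0805). Neither passed in the main fit, and both passed with an intensity trend in the variance prior. With the replicate block both passed as well, at adjusted p values of 0.0227 for Acaca and 0.0452 for Acacb. In the fit over all probe sets the block called 1434185_at but not 1427052_at (adjusted p = 0.0406 and 0.0649). Neither gene was called in any of the 6 fits without an array (adjusted p up to 0.253 for Acaca and 0.171 for Acacb). With replicates 1 and 2 alone their adjusted p values were 0.0795 and 0.183. The dimmer probe sets, 1427595_at of Acaca and 1445754_at of Acacb, had log2 fold changes of -0.34 and 0.10 and mean levels of 4.16 to 4.54 in either genotype, near the filter value of 4.21.

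Fasn encodes the synthase that builds palmitate. Its probe set 1423828_at read 7.97, 8.05 and 7.98 in SRC-2 null and 8.89, 8.75 and 8.87 in wild-type livers (log2 level). The null arrays lay close together and none reached the wild-type values. The log2 fold change was -0.83 (SE 0.08, 95% interval -1.02 to -0.65, adjusted p = 0.000855), 1.78-fold lower. The call held without each array in turn, at an adjusted p of at most 0.00688.

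Scd1, the stearoyl-CoA desaturase, did not pass in the main fit but did with an intensity trend in the variance prior. It passed neither with the replicate block (adjusted p = 0.0711) nor with replicates 1 and 2 alone (adjusted p = 0.182). None of the 6 fits without an array called it (adjusted p values of 0.123 to 0.291). Its bright probe set 1415964_at read 11.61, 11.52 and 11.61 in SRC-2 null and 11.79, 11.92 and 11.96 in wild-type livers (log2 level), without overlap, and the log2 fold change was -0.31 (95% interval -0.50 to -0.12, adjusted p = 0.0879). The second probe set, 1415965_at, read 7.98, 7.77 and 6.40 in SRC-2 null and 7.77, 8.06 and 6.71 in wild-type livers. Replicate 3 was low in both genotypes there, by more than the genotypes differed, and the log2 fold change was -0.13 (adjusted p = 0.948).

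Elovl6, the elongase that acts on palmitate, had log2 fold changes below 0 on all 3 of its probe sets. The brightest, 1417404_at, read 6.70, 6.87 and 6.94 in SRC-2 null and 7.58, 7.65 and 7.65 in wild-type livers (log2 level), and the log2 fold change was -0.79 (SE 0.09, 95% interval -0.998 to -0.58, adjusted p = 0.00188). The others, 1417403_at and 1442656_at, also had no overlap between genotypes and had log2 fold changes of -0.60 (adjusted p = 0.103) and -0.24 (adjusted p = 0.273). The 3 wild-type means were 7.63, 6.41 and 5.59, so the fold change was smaller on the dimmer probe sets. For 1417403_at the difference was -0.44 within replicates 1 and 2 and -0.93 within replicate 3.

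Me1, the cytosolic malic enzyme, lay at the threshold. Probe set 1430307_a_at read 8.94, 8.76 and 8.66 in SRC-2 null and 9.21, 9.25 and 9.14 in wild-type livers (log2 level), without overlap, and the log2 fold change was -0.41 (SE 0.10, 95% interval -0.63 to -0.19, adjusted p = 0.0507). The second probe set, 1416632_at, read 8.43, 8.47 and 8.78 in SRC-2 null and 9.06, 8.98 and 9.02 in wild-type livers, again without overlap, with a log2 fold change of -0.46 (adjusted p = 0.0995 over all probe sets). For 1416632_at the difference was -0.57 within replicates 1 and 2 and -0.24 within replicate 3. With the replicate block Me1 passed (adjusted p = 0.0347), and with the mean of its probe sets in place of the brightest the adjusted p was 0.0086. In the fit over all probe sets neither 1430307_a_at nor 1416632_at passed with the block (adjusted p = 0.0555 and 0.0658). Of the 6 fits without an array Me1 passed in 1, the one without SRC-2 null replicate 1 (adjusted p values of 0.0467 to 0.196). It did not pass with replicates 1 and 2 alone (adjusted p = 0.125) or without the filter (adjusted p = 0.0746).

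Probe set by probe set, 20 of the 23 were above the filter and 6 of these fell, against 1.79% of the 19634 probe sets tested. The 6 were both bright sets of Thrsp, 1 set of Elovl6 and the single sets of Srebf1, Mlxipl and Fasn. Lower values on every null array than on any wild-type array were seen in 13 of the 20, against 10.8% of all tested. With the replicate block 7 were called, the additional one being 1434185_at of Acaca (adjusted p = 0.0406), against 2.77% of all. Mlxipl's probe set kept its call in 1 of the 6 fits without an array, the one without wild-type replicate 1, and its highest adjusted p was 0.122.

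**Figure D3:**
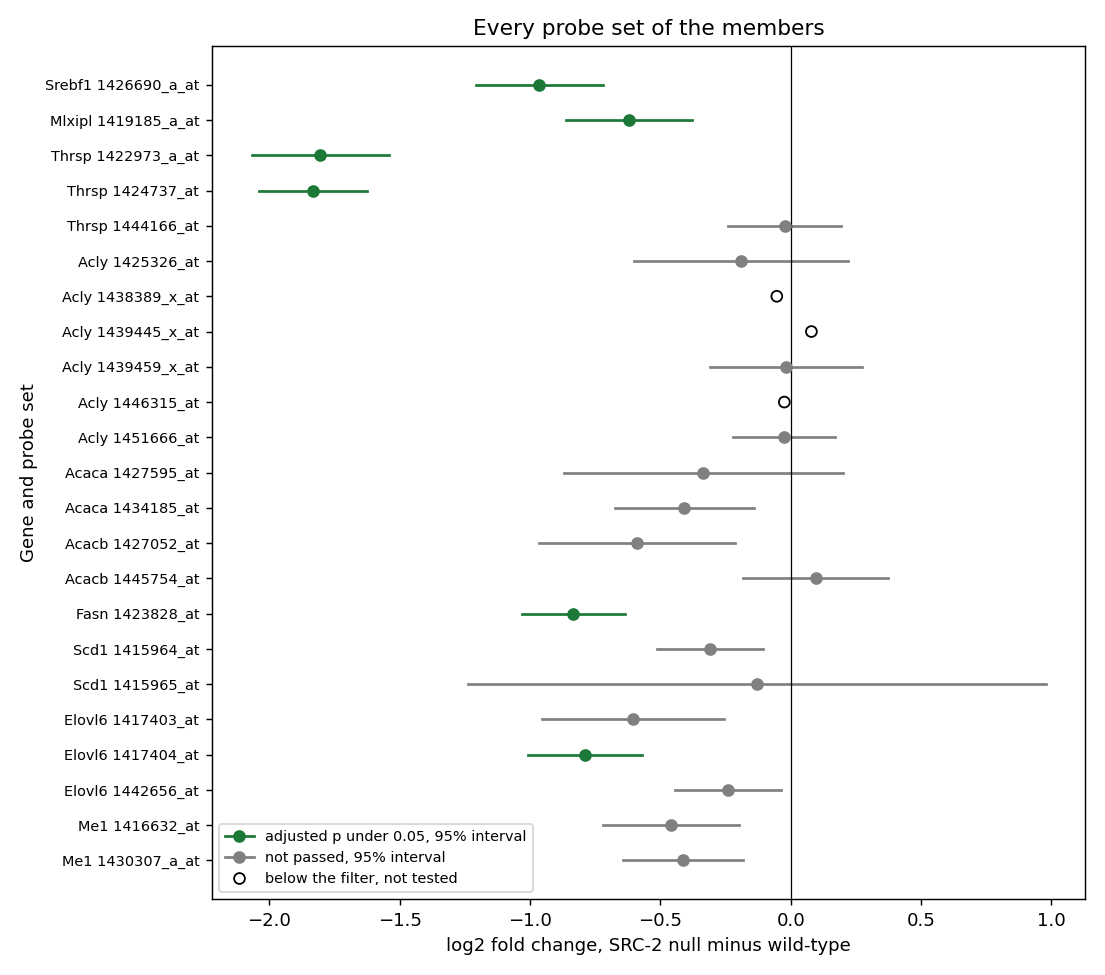
Log2 fold change, SRC-2 null minus wild-type, of all 23 probe sets with 95% intervals from the fit over all probe sets, green where the adjusted p was under 0.05 and open where the probe set was below the filter. The 6 called sets lie between -1.83 and -0.62, the sets of Acly lie between -0.19 and 0.08, and 1415965_at of Scd1 has the widest interval.

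Other genes of the pathway were read from lists named for their function. The machinery that holds and cuts SREBP precursors, with the LXR gene Nr1h3 and its partner Rxra, showed no call: of 10 tested 0 passed in limma, and an unadjusted p under 0.05 was seen in 0, with a median log2 fold change of 0.00. Insig1, which retains the precursor and is itself an SREBP target, had -0.42 (adjusted p = 0.389, and 0.0442 with the replicate block). Fbxw7, which marks the cut form for destruction, had -0.29, Mbtps1, the first protease, 0.13, and Rnf139 -0.11.

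Among 8 tested regulators of the carboxylases and the synthase 0 passed in limma, with 2 at an unadjusted p under 0.05 and a median of 0.09. Mid1ip1, the close relative of Thrsp that promotes assembly of acetyl-CoA carboxylase filaments, read 7.14, 7.20 and 7.17 in SRC-2 null and 7.56, 7.42 and 7.63 in wild-type livers (log2 level). Its arrays did not overlap, and its log2 fold change of -0.37 had an adjusted p of 0.0528, or 0.0498 with the replicate block. Hlcs, which attaches biotin to the carboxylases, had 0.33 (adjusted p = 0.0617, and 0.0439 with the replicate block). Prkab1, a subunit of the kinase AMPK, and Mlycd, which removes malonyl-CoA, had 0.11 and 0.09.

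The supply of citrate and acetyl-CoA was mixed. Of 11 tested, 1 fell and 0 rose, with a median of 0.12. Cs, citrate synthase, fell 1.47-fold (adjusted p = 0.0261), but kept its call in 1 of the 6 fits without an array, the one without SRC-2 null replicate 3, with adjusted p values of 0.0336 to 0.109 over the 6. Acss2, which makes acetyl-CoA from acetate, had a log2 fold change of -0.29 (adjusted p = 0.0879), and Mdh2, Mdh1 and Pdha1 had 0.33, 0.19 and 0.14, Mdh2 passing with the replicate block (adjusted p = 0.0467). Of 7 genes listed under NADPH supply 0 passed in limma, 2 had an unadjusted p under 0.05 and the median was -0.10. The list includes pentose phosphate enzymes that do not make NADPH themselves, such as Rpia, Tkt and Pgls. In that list Rpia, Tkt and H6pd had -0.31, -0.29 and -0.22, and Pgls had 0.31.

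Of 11 other elongases and desaturases 1 rose and 0 fell, with a median of -0.03. Elovl5, which lengthens polyunsaturated chains, rose 1.31-fold (adjusted p = 0.0402). It kept that call without wild-type replicate 3 alone, with adjusted p values of 0.0405 to 0.151 over the 6 fits. Fads1, a desaturase of polyunsaturated fatty acids, had -0.31, Hacd2 -0.28, Elovl3 -0.26 and Elovl2 0.21. The members Elovl6 and Scd1 were below 0 beside relatives of both signs.

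Known targets of SREBP-1 and of LXR fell in part, and LXR is not among the members. Of 7 other SREBP-1 and LXR targets tested 3 fell and 0 rose, with a median of -0.06. Lpin1, a phosphatidate phosphatase, read 9.79, 9.89 and 9.84 in SRC-2 null and 10.99, 10.94 and 10.97 in wild-type livers (log2 level), a log2 fold change of -1.13 (adjusted p = 0.000121). The paired sterol exporters Abcg5 and Abcg8, which are LXR targets, fell by 0.76 and 0.70 on the log2 scale (adjusted p = 0.00336 and 0.00869). Mylip, Abca1, Gpam and Lpcat3 had 0.18, 0.13, -0.06 and -0.03 and did not pass.

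Of 13 other ChREBP targets 6 fell and 0 rose, with a median of -0.31. Rgs16, a regulator of G protein signalling that ChREBP induces in liver, read 7.45, 7.82 and 7.67 in SRC-2 null and 9.83, 9.83 and 9.91 in wild-type livers (log2 level), a log2 fold change of -2.21 (adjusted p = 1.78e-05), larger in size than that of Thrsp. Txnip, an arrestin-like protein that responds to glucose, fell by 0.81 on the log2 scale (adjusted p = 0.00158), and Klf10, a transcription factor, by 0.75 (adjusted p = 0.00204). G6pc, glucose-6-phosphatase, fell by 0.71 (adjusted p = 0.00154), Khk, ketohexokinase, by 0.56 (adjusted p = 0.0231) and Slc2a2, the hepatic glucose transporter, by 0.48 (adjusted p = 0.0100). Khk kept its call in 1 of the 6 fits without an array, the one without SRC-2 null replicate 3 (adjusted p values of 0.0385 to 0.0723), and Slc2a2 lost it without wild-type replicate 2 (adjusted p = 0.0638). Gpd1, Pklr, Mlx and Fgf21 had -0.31, -0.26, 0.10 and 0.23 and did not pass.

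**Figure D4:**
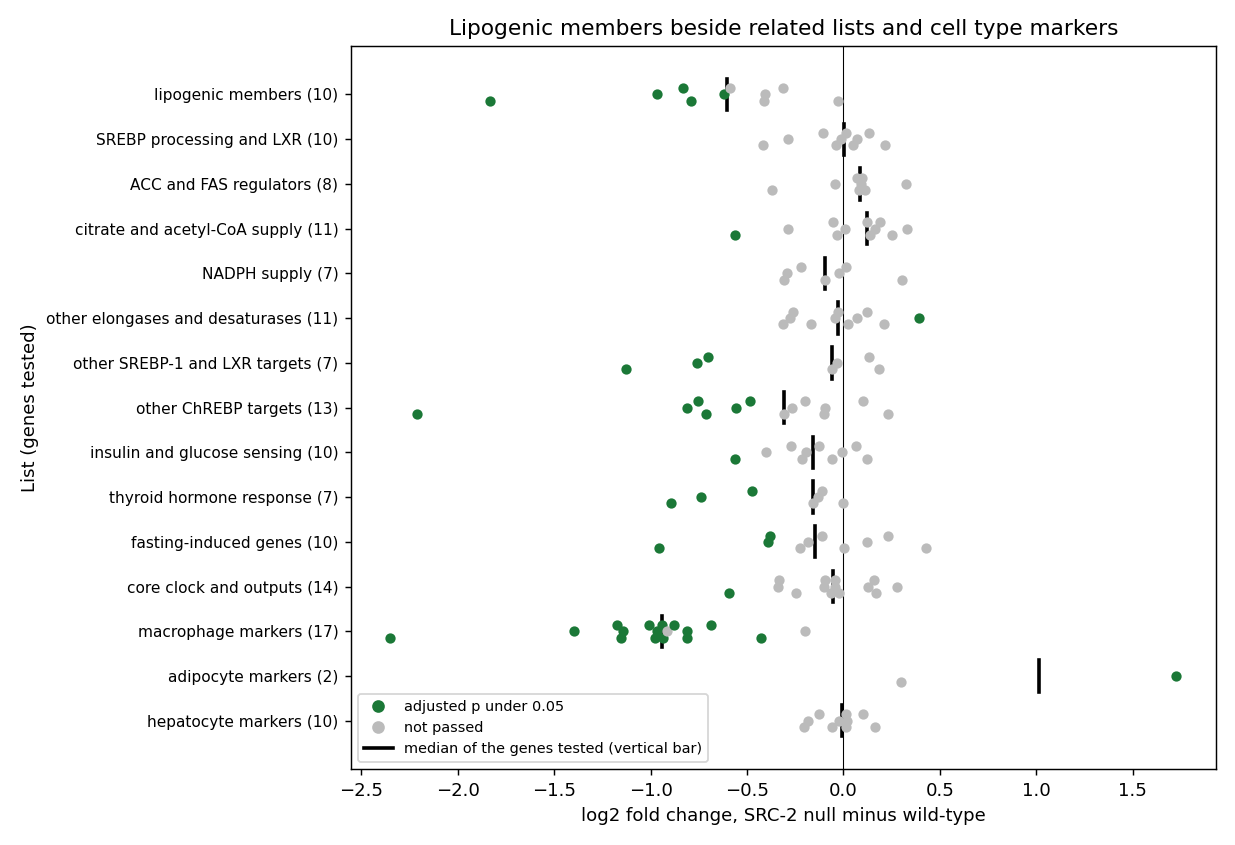
Log2 fold change, SRC-2 null minus wild-type, of every tested gene of the members and of 14 lists, green where the adjusted p was under 0.05, with a vertical bar at each list's median. The members have a median of -0.60, the hepatocyte markers of 0.00, the macrophage markers of -0.94, and the adipocyte list, with 2 genes tested, of 1.01.

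Upstream signals were read the same way. Of 10 insulin and glucose sensing genes 1 fell and 0 rose, with a median of -0.16. Irs1, an insulin receptor substrate, fell by 0.56 on the log2 scale (adjusted p = 0.0349). It kept its call without SRC-2 null replicate 3 alone, with adjusted p values of 0.0270 to 0.138 over the 6 fits. Foxo1, a transcription factor that insulin restrains, had -0.40 (adjusted p = 0.219, and 0.0240 with the replicate block), and Gckr, Irs2 and Insr had -0.27, -0.21 and -0.13.

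Thrsp and Me1 are known thyroid hormone targets. Of 7 tested genes listed under the response to that hormone 3 fell and 0 rose, with a median of -0.16. The list also holds the receptor genes Thra and Thrb and the transporter gene Slc16a10. Dio1, the deiodinase whose expression tracks thyroid hormone in liver, read 8.46, 8.51 and 8.44 in SRC-2 null and 9.39, 9.36 and 9.35 in wild-type livers, a log2 fold change of -0.89 (adjusted p = 0.000381). Gpd2, the mitochondrial glycerol phosphate dehydrogenase, fell by 0.74 on the log2 scale (adjusted p = 0.0129), a call lost without SRC-2 null replicate 1 (adjusted p = 0.0501). Slc16a10, a transporter that carries thyroid hormone, fell by 0.47 (adjusted p = 0.0214), a call lost whichever array was left out (adjusted p values of 0.0553 to 0.0972). The receptor genes Thra and Thrb had 0.00 and -0.16, Klf9 -0.13 and Hr -0.11.

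Feeding and time of day move lipogenic genes in liver, so genes that report on both are given beside the members. Of 10 fasting-induced genes 3 fell and 0 rose, with a median of -0.15. Pdk4, a kinase that blocks pyruvate use, fell by 0.96 on the log2 scale (adjusted p = 0.00524), and Angptl4 and Acot1 fell by 0.39 and 0.38 (adjusted p = 0.0370 and 0.0329). Angptl4 kept its call without SRC-2 null replicate 3 alone (adjusted p values of 0.0489 to 0.146), and Acot1 lost it without any one of the arrays (0.0742 to 0.132). Cpt1a, the gate of fatty acid entry into mitochondria, had 0.43 (adjusted p = 0.0678), passed with the replicate block (adjusted p = 0.0296) and passed without SRC-2 null replicate 3 (adjusted p = 0.0267). Igfbp1, Tat and Fgf21 had -0.22, -0.18 and 0.23. Of 14 clock genes and clock outputs 1 fell and 0 rose, with a median of -0.05. That gene was Bhlhe40, a repressor, at -0.59 (adjusted p = 0.00916), while Cry1, Per1, Nr1d2 and Bhlhe41 had -0.34, -0.33, -0.25 and 0.28. The part of feeding or of the hour of death in the lipogenic differences was not tested.

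Lipogenic genes are also strongly expressed in adipocytes, and the adipocyte markers Fabp4 and Adipoq were higher in SRC-2 null liver. Of 6 adipocyte markers matched, 2 were tested and 1 rose. Fabp4, which binds fatty acids in adipocytes and also in macrophages, read 8.14, 8.25 and 8.30 in SRC-2 null and 6.37, 6.32 and 6.82 in wild-type livers (log2 level), 3.31-fold higher (adjusted p = 0.000272). Adipoq, the adiponectin gene and a defining adipocyte transcript, read 4.88, 4.99 and 5.42 in SRC-2 null and 2.92, 2.97 and 3.01 in wild-type livers. It was named after its values were seen, because its mean was under the filter, and without the filter its log2 fold change of 2.13 had an adjusted p of 5.80e-05. Lep, Acvr1c and Slc7a10 lay at mean levels of 2.74 to 3.30 in either genotype with log2 fold changes of 0.08, -0.04 and -0.23, and Retn had 0.30 (adjusted p = 0.242). The summed linear level of the 6 markers was 368 to 417 on the SRC-2 null arrays and 138 to 171 on the wild-type arrays. Fabp4, the brightest of the 6, made up most of that sum and most of its difference. The members lay lower on the same arrays where Fabp4 and Adipoq lay higher, and the part of adipocyte RNA in the member values was not tested.

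Macrophage markers moved with the members. Of 17 tested 15 fell and 0 rose, with a median of -0.94, and their summed linear level was 2881 to 3093 on the SRC-2 null arrays and 5895 to 6171 on the wild-type arrays. Marco, Timd4, Adgre1 and Cd5l fell 5.10-fold, 2.63-fold, 2.26-fold and 2.22-fold, and C1qa, C1qb, C1qc, Clec4f, Csf1r, Lyz2, Mpeg1, Cd68 and Vsig4 fell between 1.75-fold and 2.21-fold. Folr2 fell 1.61-fold and Cd163 1.34-fold. Fcgr1 and Msr1 did not pass, at log2 fold changes of -0.92 and -0.20. Cd163 was called in none of the fits without an array (adjusted p values of 0.0562 to 0.117), and Folr2 lost its call without SRC-2 null replicate 1, wild-type replicate 1 or wild-type replicate 2 (adjusted p of at most 0.0763). In whole liver, fewer cells of a type and less RNA per cell cannot be told apart. The part of the macrophage difference in the member values was not tested. The summed level of the hepatocyte markers was 116678 to 122177 on the SRC-2 null arrays and 117211 to 122871 on the wild-type arrays, ranges that overlap.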

How the data were processed

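Total RNA from liver was labelled with biotin and hybridised to short oligonucleotide arrays, per the labels. The deposited values are log2 expression values that the authors made with RMA, per the submitters' processing notes; the sources used here give no version, chip description or genome build. RMA corrects background, quantile-normalizes and pools the probes of a set, so folds near the low end are compressed.

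Each of 18194 genes was represented by its brightest single-symbol probe set. A mean of at least 4.21, the median over the probe sets, was needed for a test, which left 11895 genes, and 19634 probe sets for a second fit. Genotypes were compared with limma 3.58.1 in R 4.3.3 (lmFit and eBayes, two-sided, genotype as the one term), with calls at an adjusted p under 0.05 (Benjamini-Hochberg, over the whole table). The fit was run on simulated data with independent noise for each array, which lacks the shared deviation of same-numbered arrays described below. The 23 member probe sets all kept their symbol in the reference gene table.

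Same-numbered arrays deviated together from their genotype means: over 11895 genes Pearson's r was 0.18, 0.20 and 0.52 for replicates 1, 2 and 3. This pairing comes from the data, since the labels give a number alone; replicates 1 and 2 were not separated from each other (0.17 and 0.21 when crossed), and replicate 3 stood apart. The replicate block was an alternative, with the filter, the summary of probe sets, the normalization, an intensity trend and left-out arrays.

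Named were the members, Ncoa2, the called genes of each list with up to 4 others of smallest p, and for Srebf1 and Thrsp the 3 genes of most similar pattern. The members and lists were chosen with earlier results of these data known, so their counts are descriptions. Lists hold the matched symbols; some targets belong to more than 1 regulator. Probe sets ending in _x_at can detect other transcripts. Plots were made with matplotlib 3.10.9 (Python 3.11.15).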

Additional observations from a re-analysis of the deposited data

How the results depend on the processing

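The members lower in SRC-2 null liver numbered 5, and 4 to 6 under every alternative but 2: with an intensity trend in the variance prior 9 members changed, all lower, beside 737 genes and 678 probe sets in all, and with the replicate block 8 changed, all lower. No member rose under any alternative run (0 in limma). Leaving out each array in turn gave 4 to 5 members, 275 to 438 genes changed in place of 556, and 225 to 353 probe sets changed in place of 473. With replicates 1 and 2 only, 329 genes changed, and with the replicate block 814 probe sets and 832 genes changed. No member or named gene called in the main result changed direction under an alternative run; uncalled ones near 0, such as Thra and Thrb, had both signs. Of the refits of single member genes, 126 kept their side of the threshold, 11 gained a call (Acaca, Acacb, Scd1 and Me1) and 3 lost it (Mlxipl). Of those of member probe sets 247 kept it, 5 gained and 6 lost a call, and of those of the other named genes 1095 kept it, 26 gained and 62 lost a call. Thrsp, Srebf1, Fasn and Elovl6 kept their calls under every alternative run. The block changed no other call of a member gene than those of Acaca, Acacb and Me1. Dim probe sets limit what can be read: fold changes at levels near 4.21 are compressed.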

Other observations

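Over the 6 arrays, the genes outside the members whose pattern was most like that of Srebf1 were Sirpa (Pearson's r = 0.997), Gin1 (0.996) and Mzb1 (0.996), among 11885 genes compared. Sirpa encodes an inhibitory receptor of myeloid cells, and Mzb1 an antibody-secretion factor. For Thrsp they were Csrp3, a muscle LIM protein, Jchain, the joining chain of antibodies, and Dusp1, a phosphatase of MAP kinases, all with r above 0.999. The arrays fall into the 2 genotypes, so these values mostly carry the genotype difference, which all 6 genes share: they fell 1.70-fold (Sirpa), 1.33-fold (Gin1), 2.59-fold (Mzb1), 2.59-fold (Csrp3), 5.69-fold (Jchain) and 2.45-fold (Dusp1), with limma adjusted p values of at most 0.0282. Gin1 was called in 0 of the 6 fits without an array (limma adjusted p of 0.0641 or more) and missed the threshold with replicates 1 and 2 alone (adjusted p = 0.103).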
